A study of Mus musculus with 3 samples.

Results

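Chromatin regulators were examined as possible neighbours of the retinal transcription factor Atoh7: 39 genes of nucleosome remodelling, Polycomb repression and histone modification, chosen by name. The gene lists used here were drawn up with earlier results of these data known, so their shares and densities only describe these lists. Atoh7 CUT&RUN peaks were assigned to the genes by position, meaning that the peak midpoint lay in the gene body or within 50 kb of either end of it. The rule found 39 peaks of the 3668 deposited (1.06%). As 2 of these peaks lie in the windows of both Chd3 and Kdm6b, they make 41 pairs of a peak and a gene. The study holds 3 CUT&RUN libraries from retina of C57Bl6/J mice at embryonic day 14, 2 labelled Atoh7 and 1 labelled IgG. No mutant or treated group is among them, and the labels do not say how many animals were pooled, if the Atoh7 libraries are from different animals, or that any cell type was sorted. In CUT&RUN an antibody directs a nuclease that releases the DNA around the bound protein. The values are a single list of peak positions and widths on the mm10 build, with no height, no enrichment and no value per library. Depth is therefore unknown, replicates and IgG could not be compared, and no test across samples was possible. Intervals below are 95% and cover counting of peaks or genes only.

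Nucleosome remodellers use ATP to slide, evict or restructure nucleosomes. The Chd proteins carry paired chromodomains beside such an ATPase motor, while BAF complexes assemble around the motors Smarca4 or Smarca2 and change subunits as progenitors become neurons. Polycomb complexes keep developmental genes silent: PRC2 methylates histone H3 through Ezh1 or Ezh2, and PRC1, with Ring1 or Rnf2 as its ubiquitin ligase, compacts the marked chromatin. Kmt2 enzymes methylate H3 at active promoters and enhancers, and Kdm6a and Kdm6b remove the mark that PRC2 places. In the retina these systems are known for their part in the switch from dividing progenitor to neuron, the step at which Atoh7, a basic helix-loop-helix factor needed for ganglion cells, acts.

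Peaks lay at or near 21 of the 39 genes (53.8%, Wilson interval 38.6 to 68.4%). Among all 21627 protein-coding genes, 24.4% had a peak in the same window. As the members were chosen with earlier results of these data known, such differences describe this list only. Of the 39, 11 genes had 1 peak, 7 had 2, Cbx2 had 3, Chd7 had 4 and Auts2 had 9. The share with 2 or more was 25.6% (10 genes), against 6.78% of all protein-coding genes. Midpoints inside the gene body itself were found for 10 members (25.6%), against 7.17% of all genes. The remaining 11 members with a peak had it only in the flanks. For 12 members (30.8%) a peak had the member as its nearest protein-coding gene, against 10.8% of all genes, so that 9 members counted here have only peaks that lie closer to, or inside, another gene.

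**Figure D1:**
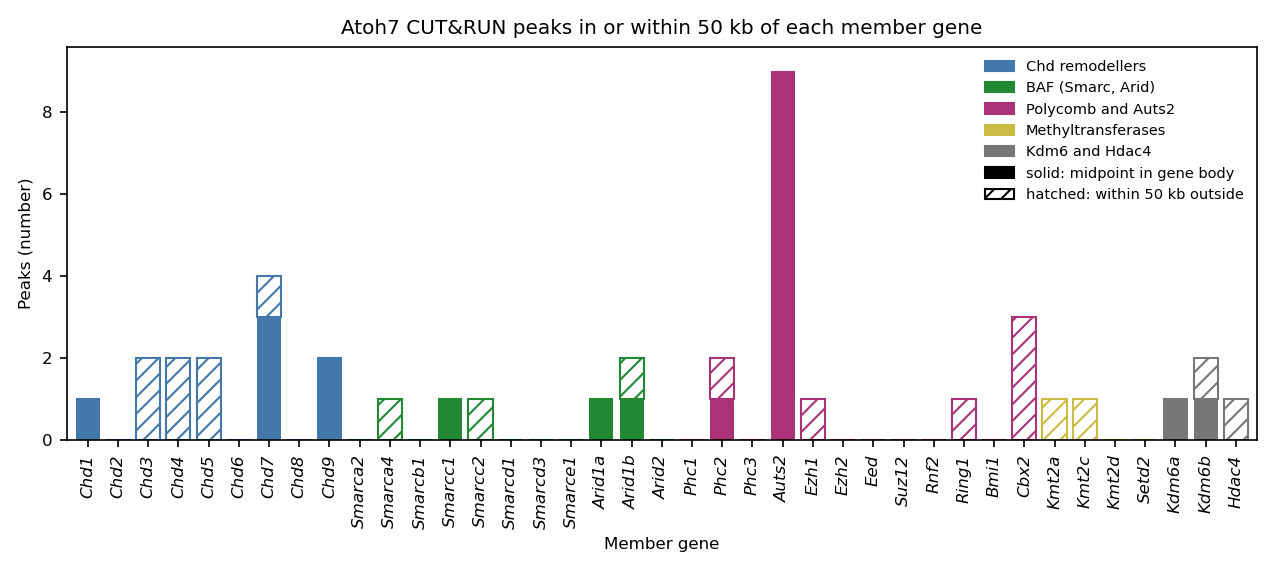
Number of Atoh7 CUT&RUN peaks (y axis) for each of the 39 member genes (x axis), coloured by group, with solid bars for midpoints in the gene body and hatched bars for midpoints within 50 kb outside it. Auts2 stands at 9, Chd7 at 4 and Cbx2 at 3, and 18 genes have none.

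RefSeq's promoter table covers 30 members with 36 promoters, each running from 250 bases before to 50 after an annotated start. Peaks overlapped 2 of these (5.56%), those of Kmt2a and Kdm6a, against 2.73% of all promoters in the table. The table also holds promoters of noncoding genes, whereas all members are protein-coding. The Polycomb gene Cbx8, a neighbour of Cbx2, had one too. The stretches upstream of Kmt2a and Cbx8 are shown because the peaks cover them whole. They come from RefSeq on GRCm38.p6, the assembly named mm10, at chr9:44881353-44881539 and chr11:119040914-119041163, both on the minus strand, and stop where the annotated gene begins. Read 5′ to 3′, capitals mark each CANNTG, the E-box letters that basic helix-loop-helix dimers can bind.
Kmt2a: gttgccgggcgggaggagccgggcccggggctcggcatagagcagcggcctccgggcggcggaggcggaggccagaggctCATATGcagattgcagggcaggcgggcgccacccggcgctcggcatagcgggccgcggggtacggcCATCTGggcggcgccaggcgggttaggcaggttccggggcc
Cbx8: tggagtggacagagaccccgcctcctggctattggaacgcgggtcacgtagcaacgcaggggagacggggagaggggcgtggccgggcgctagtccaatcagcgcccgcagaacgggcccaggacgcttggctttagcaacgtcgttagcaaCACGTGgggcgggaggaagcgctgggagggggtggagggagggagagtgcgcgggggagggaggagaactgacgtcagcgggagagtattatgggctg
Kmt2a has 2 such hexamers here, CATATG and CATCTG, which begin 170 and 104 bases before its start in the promoter table. Of the 250 bases before that start, the 63 nearest to it lie inside the annotated gene and are not shown. A further one, CAGCTG, reached into the bases after that start. Cbx8 has 1, CACGTG, beginning 98 bases before the start. At Kdm6a only 32 of the 250 bases upstream of the start lay in the peak, and its 1 hexamer, a CACGTG, began 27 bases before the start, outside the peak.

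These letters are common. A CANNTG was present in 20 of 36 member promoters (55.6%, Wilson interval 39.6 to 70.5%) and in 72.3% of all 32851 promoters of the table. The latter include those of noncoding genes. The member promoters of Chd4 overlap one another, as do those of Chd5, so the interval counts some shared sequence as separate. Since CANNTG reads the same on both strands, 1 strand was searched, and it includes the other motifs. CAGCTG was in 6 of 36 member promoters (16.7%) and 16.3% of all. CAGATG or CATCTG, each the reverse complement of the other, were in 5 of 36 (13.9%) and 17.2% of all. CACGTG was in 4 of 36 (11.1%) against 7.15%, and CATATG in 1 of 36 (2.78%) against 3.91%. Base composition differed, with a median GC content of 67.2% in member promoters and 52.7% in all promoters, and its part in these shares was not tested. Over the whole list, the share with CANNTG was 67.1% among the 898 promoters that a peak overlapped and 72.5% among the others. In the same order it was 15.7 and 17.2% for CAGATG or CATCTG, 1.45 and 3.98% for CATATG, 28.0 and 16.0% for CAGCTG, and 9.13 and 7.09% for CACGTG. These differences were not tested. No genome sequence was used here, so the letters under peaks away from these promoters, such as those inside Auts2, Chd7 and Phc2, were not searched. The table holds no promoter of Arid2, Auts2, Cbx2, Chd1, Chd2, Chd3, Chd7, Kdm6b or Smarce1.

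Among the Chd remodellers 6 of 9 had a peak (66.7%, Wilson interval 35.4 to 87.9%), with 13 peaks in all. Chd7, the remodeller mutated in CHARGE syndrome, which includes eye defects, led them with 4. Its gene (chromosome 4, 8690402 to 8868449, 178 kb) held peaks at 8750731 to 8751125, 8799434 to 8799912 and 8850465 to 8850924. These are 395, 479 and 460 bp wide and lie 34.0, 61.4 and 90.0% of the way along the body from its low-coordinate end, so they are spread over the gene, none of them within 1 kb of an end. A further peak of 860 bp, at 8911211 to 8912070, was centred 43.2 kb beyond the high-coordinate end, with Chd7 still the nearest protein-coding gene and one end of Gm46842, which makes a long noncoding RNA, at 778 bp. No other protein-coding gene reaches into the Chd7 window. Of the 1437 protein-coding genes of 100 to 200 kb, 18 (1.25%) had 4 or more peaks.

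Chd9, of the same subfamily as Chd7, held 2 peaks in its body (chromosome 8, 90862036 to 90862424 and 90954691 to 90955321), 15.0 and 56.0% of the way from its annotated 5′ end. Chd1, a remodeller tied to transcription elongation, held 1 (chromosome 17, 15731623 to 15732102, 480 bp), 39.8% of the way along its 67.6 kb. The peaks in the bodies of Chd1, Chd7 and Chd9 were all 17.8 kb or more from either end of their gene.

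The Chd genes of the NuRD repressor complex, Chd3, Chd4 and Chd5, each had 2 peaks, and all 6 of those pairs were in the flanks and nearer to another gene. Their bodies, of 26.2 to 51.5 kb, make up only 112 kb, in which a count of 0 allows up to 3.28 peaks per 100 kb (exact Poisson interval), above the 0.651 of all Chd bodies. The Chd4 peaks (chromosome 6, 125081719 to 125082135 and 125156781 to 125157551) were centred 14.1 and 26.6 kb from Chd4, inside Lpar5 and Iffo1. Those of Chd5, the neuronal paralogue, were centred 41.4 and 24.8 kb away, inside Icmt and Kcnab2, the first 17 bp from one end of Icmt and overlapping its promoter. The Chd3 peaks were centred 26.3 and 48.6 kb away on chromosome 11, inside Naa38 and Kdm6b, the first 52 bp from one end of Naa38. The windows of Chd3, Chd4 and Chd5 reach 7, 7 and 5 other protein-coding genes, where the median over all protein-coding genes is 3. Chd2, Chd6 and Chd8 had no peak, the nearest being 53.6, 156 and 178 kb away.

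BAF genes had peaks in 5 of 11 (45.5%, Wilson interval 21.3 to 72.0%), with 6 peaks in all. The bodies with a peak belonged to Smarcc1, a scaffold subunit, and to Arid1a and Arid1b, the alternative large subunits that define canonical BAF. The Smarcc1 peak (chromosome 9, 110205904 to 110206321, 418 bp) lay 68.5% of the way from the annotated start. In Arid1a the peak (chromosome 4, 133729682 to 133730296, 615 bp) lay 34.4% of the way, 24.0 kb from the nearest annotated start. The Arid1b peak (chromosome 17, 5295525 to 5295821, 297 bp) lay 85.3% of the way along a gene of 353 kb, and a second (5372811 to 5373212) was centred 25.4 kb beyond the gene with Arid1b as the nearest. For none of these 11 genes was a peak found near the gene's own start.

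The motor gene Smarca4 had only a peak 39.7 kb away, inside Carm1, and the scaffold gene Smarcc2 only one 35.5 kb away, 194 bp from Esyt1. No peak lay in the windows of Smarca2, the other motor, of the core subunit gene Smarcb1, or of Smarcd1, Smarcd3, a subunit gene of neurons and heart, Smarce1 and Arid2, a subunit of the related PBAF complex. Their nearest peaks were 200, 521, 53.8, 138, 526 and 1200 kb away in that order. Smarcd1 at 53.8 kb and Chd2 at 53.6 kb were the members just outside the window of 50 kb. The pair just inside it were Cbx2 with a peak at 49962 bp and Chd3 with one at 48.6 kb.

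Polycomb genes had peaks in 5 of 12 (41.7%, Wilson interval 19.3 to 68.0%), with 16 peaks, of which 9 were at Auts2. Auts2, a partner of a PRC1 variant in neurons and a gene linked to autism, spans 1106 kb of chromosome 5 (131437333 to 132543220), and no other protein-coding gene reaches into its window. All 9 midpoints were in the body. The first 6, at 131584592 to 131704122, fell within 119 kb, between 13.3 and 24.1% of the way from the low-coordinate end. Within that group the peaks at 131645605 to 131646127, 131650553 to 131650822 and 131658852 to 131659240 are 523, 270 and 389 bp wide, and the first pair of them are 4.82 kb apart, the shortest spacing in the gene. The next peak followed after 141 kb, and the last 2, at 132169984 to 132170559 and 132429317 to 132429693, lay 66.3 and 89.7% of the way along. The nearest distance of any of the 9 to an end of Auts2 was 114 kb, so none was at an end of the gene. Of the 226 protein-coding genes of 500 kb or more, which had 0.982 peaks on average, Auts2 alone had as many as 9. In all, 3 of 21627 protein-coding genes did. The Auts2 peaks had a median width of 377 bp, and the whole list 381 bp. The group of 6 was singled out after the positions were seen.

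**Figure D2:**
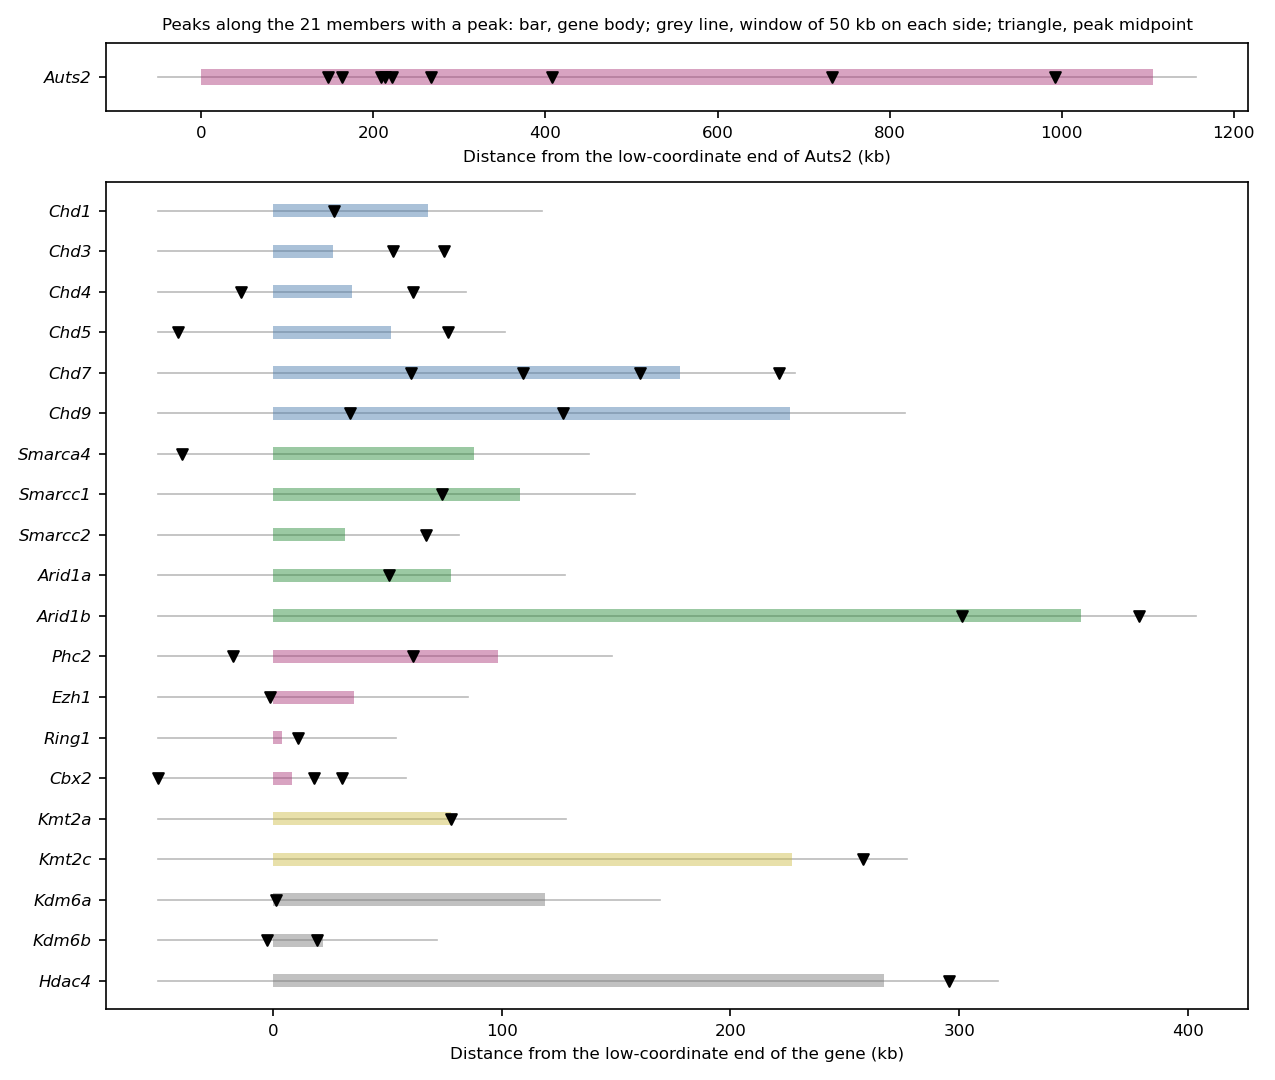
Positions of peak midpoints (triangles) along each of the 21 members with a peak, as distance in kb from the low-coordinate end of the gene, with the gene body as a bar and the window as a grey line (upper panel Auts2, lower panel the others, colours by group). Auts2, Chd7 and Chd9 carry peaks inside the body, while those of Chd3, Chd4, Chd5 and Cbx2 all lie in the flanks.

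Among PRC1 genes, Phc2, which encodes a Polyhomeotic subunit that can polymerise, had 2 peaks. One (chromosome 4, 128715290 to 128716654) lay in the body 62.4% of the way from the gene's start, 11.6 kb from the nearest of its annotated starts, and at 1365 bp was the widest of the 39 and ranked 4 by width among all 3668. Width is not a measure of occupancy. The other (128637177 to 128637401, 225 bp) was centred 17.4 kb outside the gene and overlapped the promoter of the noncoding gene Gm12958. The paralogues Phc1 and Phc3 had none, with the nearest peaks 101 and 81.2 kb away.

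Cbx2, a chromodomain subunit that reads the PRC2 mark, is a gene of 8.26 kb on chromosome 11 with no peak of its own body. Its 3 peaks were centred 49962 bp away on one side (118972700 to 118973414) and 9.83 and 22.1 kb away on the other (119040853 to 119041349 and 119053087 to 119053684). The last pair had Cbx8, the next gene, as the nearest. Among protein-coding genes Enpp7 was closest to the first peak, 15.1 kb from its midpoint, which lay inside the noncoding gene Gm35710. All 3 peaks were thus closer to another gene than to Cbx2. The 9.83 kb peak is the one at the Cbx8 promoter, 188 bp from that gene. Of the 11652 protein-coding genes under 20 kb, 173 (1.48%) had 3 or more peaks. Ring1, a ligase gene of 3.89 kb, had 1 peak 6.96 kb away, inside Slc39a7 at 52 bp from an end and overlapping the promoters of Slc39a7 and Rxrb. Its paralogue Rnf2 and the partner gene Bmi1 had none within 218 and 210 kb.

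The 4 PRC2 genes among the members had a single peak in all. Other Polycomb genes in the list of relatives are not counted here. Ezh1, the enzyme gene that dominates in cells that no longer divide, had 1 peak (chromosome 11, 101189813 to 101190291), centred 1.06 kb from the gene and inside its neighbour Cntnap1, 672 bp from that gene's end. Ezh2, the enzyme gene of dividing progenitors, and the core genes Eed and Suz12 had none, with nearest peaks at 164, 462 and 200 kb. This is 1 of the 4 PRC2 members (Wilson interval 4.56 to 69.9%), an interval that holds the 24.4% of all protein-coding genes.

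Among the methyltransferase genes 2 of 4 had a peak (Wilson interval 15.0 to 85.0%), 1 each. The Kmt2a peak (chromosome 9, 44881237 to 44881581, 345 bp) was centred 57 bp outside the gene and 120 bp from its start in the promoter table. Its midpoint lay inside another annotated gene, Gm39326. This peak was the only one of the 39 within 1 kb of a member's own end. The Kmt2c peak (chromosome 5, 25529570 to 25529871) was centred 30.9 kb away, 298 bp from the noncoding gene 1700096K18Rik. Kmt2c and Kmt2d encode the enhancer methyltransferases. Kmt2d and Setd2, which methylates H3 along transcribed genes, had none, the nearest being 68.3 and 124 kb away.

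The 3 genes grouped here as erasers of marks (Kdm6a, Kdm6b and Hdac4) all had a peak, 4 in all. Kdm6a (chromosome X) held one of 192 bp at 18162165 to 18162356, 315 bp from its tabulated start and 1.40 kb inside the annotated gene. Kdm6b (chromosome 11, 69398508 to 69420367) held one at 69417909 to 69418195, 2.31 kb from its high-coordinate end, with the midpoint also inside Gm51903. It had a second at 69395443 to 69396244, 802 bp wide, centred 2.67 kb outside the gene and inside Naa38, 52 bp from one end of Naa38. These are the pair also counted for Chd3. Hdac4, a deacetylase gene of 267 kb, had none in the body, and 1 of 177 bp centred 28.8 kb beyond it. A count of 3 genes gives a Wilson interval of 43.9 to 100%.

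Length was set against these counts. Long genes offer more sequence: of all protein-coding genes under 20 kb, 21.1% had a peak in the window, rising by class to 24.5% at 20 to 50 kb, 26.8% at 50 to 100 kb, 33.8% at 100 to 200 kb, 41.4% at 200 to 500 kb and 50.4% at 500 kb or more. The members are longer than most, with a median of 65.0 kb against 17.3 kb. If each member had the share of its own length class, 11.2 of 39 would have a peak, where 21 did. Chd genes had a peak in 6 where their classes give 2.73, BAF in 5 against 3.16, Polycomb in 5 against 3.17, methyltransferases in 2 against 1.20 and erasers in 3 against 0.998. At class means the 39 genes would have 16.3 peaks, where the pairs number 41, and without Auts2 15.4, where they number 32. In the classes, 2 of 4 members under 20 kb, 5 of 13 at 20 to 50 kb, 6 of 10 at 50 to 100 kb, 3 of 7 at 100 to 200 kb, 4 of 4 at 200 to 500 kb and Auts2 above that had a peak.

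Across the members, length ordered the counts weakly. Spearman's rho of peak count and gene length was 0.235 over 39 genes and 0.168 without Auts2, and over all 21627 genes 0.132. Pearson's r was 0.785 and, without Auts2, 0.255, so it rests on that gene. The relation lay with the body: rho was 0.451 for peaks in the body and -0.08 for peaks in the flanks, whose length is the same for every gene. All points come from 1 peak list, and members that lie close together share peaks.

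**Figure D3:**
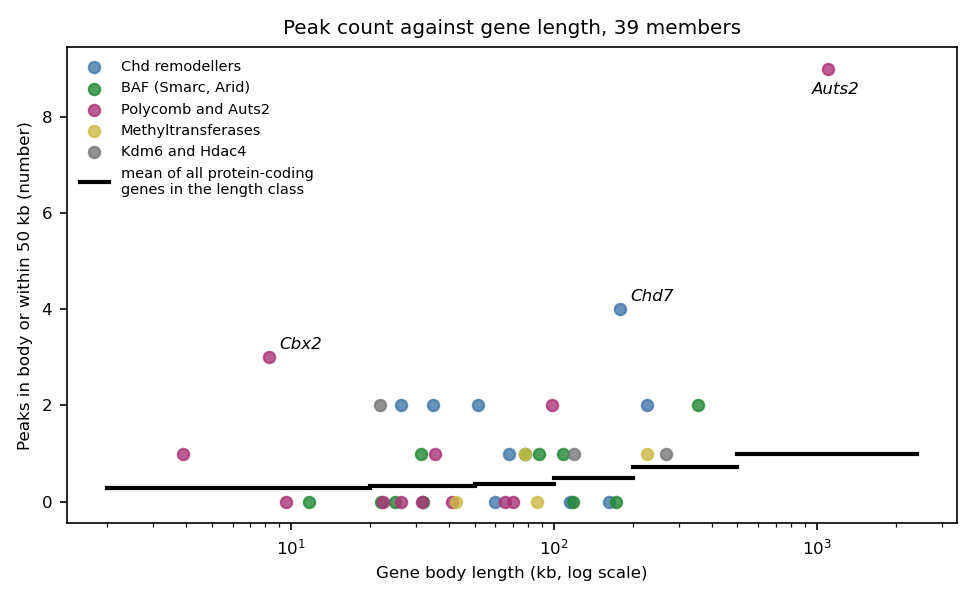
Peaks in the body or within 50 kb (y axis) against gene body length in kb (x axis, log scale) for the 39 members, coloured by group, with the mean over all protein-coding genes of each length class as black lines. The class means rise from 0.289 to 0.982 peaks, and Auts2, Chd7 and Cbx2 stand far above theirs. All 3 peaks counted for Cbx2 lie closer to another gene.

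Per length of window, Chd genes had 0.714 peaks per 100 kb (exact Poisson interval 0.380 to 1.22, from 13 peaks in 1821 kb) and Polycomb genes 0.589 (0.336 to 0.956). Without Auts2 the Polycomb value was 0.463 (0.186 to 0.954, 7 peaks). The erasers had 0.565 (0.154 to 1.45), BAF genes 0.280 (0.103 to 0.610) and methyltransferases 0.240 (0.0291 to 0.867). Over all members the density was 0.499 (0.358 to 0.677), and over all protein-coding genes, with peaks counted once for each gene they are near, 0.230. The order of the groups changed with the window: in gene bodies alone Polycomb genes had 0.659 and Chd genes 0.651 peaks per 100 kb, and with a window of 10 kb 0.740 and 0.545. The intervals of the 5 groups overlap. Overlap of separate intervals does not decide whether 2 groups differ, and the order of the groups was not tested. In gene bodies alone the members had 0.486 peaks per 100 kb (0.301 to 0.743) and all genes 0.191. In the flanks the members had 0.513 (0.313 to 0.792) and all genes 0.249. Without Auts2 the bodies had 0.373 (0.193 to 0.652, 12 peaks). The member windows reached 1.45 other protein-coding genes per 100 kb, and the windows of all genes 2.12.

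**Figure D4:**
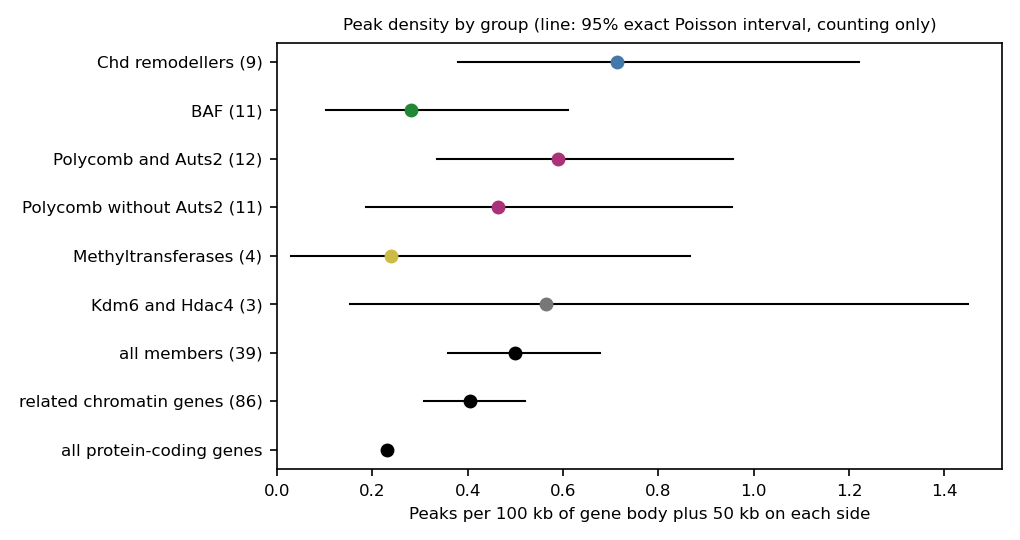
Peaks per 100 kb of gene body plus 50 kb on each side (x axis) for each group, with 95% exact Poisson intervals as lines and the number of genes in brackets. Chd genes have the highest value at 0.714 and methyltransferases the lowest at 0.240 in this window, with overlapping intervals and an order that changes with the window, and all protein-coding genes lie at 0.230.

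The share of the 39 peaks at gene ends was within counting error of that of the other peaks. Within 1 kb of an end of any annotated gene lay 10 of 39 (25.6%, Wilson interval 14.6 to 41.1%) and 26.5% of the other 3623 peaks on chromosomes 1 to 19 and X. In the body of some protein-coding gene lay 29 of 39 (74.4%, 58.9 to 85.4%), against 53.5% of the others. The rule favours such peaks, because every window holds a gene. Midpoints in a member's own body numbered 21 (53.8%), and 13 (33.3%) had another protein-coding gene as the nearest. Median width was 395 bp (quartiles 295.5 and 510.0) at the members and 381 bp (quartiles 269.0 and 486.0) in the whole list. By group it ran from 239.5 bp at the erasers (4 peaks) to 460 bp at the Chd genes (13 peaks).

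Other chromatin genes, a list of 86 relatives of the members, had a peak in 37 (43.0%, Wilson interval 33.1 to 53.6%), where their length classes give 23.1. The share was 8 of 12 for other methyltransferases, 8 of 15 for other BAF subunits, 6 of 13 for ISWI, INO80 and further remodellers, 4 of 10 for other demethylases and class II deacetylases, 8 of 25 for other Polycomb genes and 3 of 11 for NuRD subunits. The highest count was 3. Among the genes that reached it, Mbd3, a NuRD subunit gene of 6.99 kb on chromosome 10, had 1 peak in the body (80398985 to 80399185), 1 centred 0.243 kb outside it and 1 at 34.6 kb, nearest to Tcf3. Fbrsl1, a relative of Auts2 on chromosome 5, had 1 in the body and 2 at 23.8 and 38.4 kb with Fbrsl1 the nearest gene. Bcl7a, a BAF subunit gene, and Nsd1, a methyltransferase gene, each had 1 in the body and 2 nearer to other genes. Cbx8 reached 3 as well, and shares the last pair of peaks given with Cbx2. Density over the list was 0.404 peaks per 100 kb (0.309 to 0.520), and its interval overlaps that of the members.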

How the data were processed

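The submitters' processing notes name MACS2 2.2.7.1, bedtools, Bowtie2 2.3.5, Picard 2.0.1 and SAMtools with the mm10 build, and give neither order nor settings. The table the authors deposited gives chromosome, start, end and width in bp for each peak, per the file headers, with starts counted from 1. Every name begins with Atoh7_R1. Its running numbers reach 7185, of which 51.1% are present. The step that removed the others, and the part of replicate 2 and IgG in it, are not given in the sources used here. Library groups came from the titles.

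Gene positions are those of RefSeq on GRCm38.p6, limited to chromosomes 1 to 19 and X, which left out 6 peaks. All 39 members and 86 relatives matched by symbol. The members and lists were chosen with earlier results of these data known. All members are named, and of the relatives the 6 with the most peaks, 1 of which is not reported here. Direction comes from a promoter table that covers 30 members (36 promoters). A midpoint is the rounded-down centre. Density is the sum of peaks over the sum of window lengths. Length classes were split at 20, 50, 100, 200 and 500 kb. Intervals are Wilson or exact Poisson at 95%. No test was made, since the list gives 1 set of positions. Alternatives were the gene body only, windows of 10 and 100 kb, peaks of at least 381 bp, any overlap of 1 bp, leaving out Auts2, and peaks nearest to the gene. The counting was checked on simulated peaks at 200 genes and recovered all 200. Calculations ran in Python 3.11.15 with scipy 1.17.1, pandas 2.3.3 and numpy 2.4.6, and plots in matplotlib 3.10.9.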

Additional observations from a re-analysis of the deposited data

How the results depend on the processing

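Of 105 alternative values, 73 stayed within the limits of the value reported and 32 moved beyond them. The limits were its interval, or for counts of genes 1.5 times and for rho 0.1. For median width they were the quartiles of the member peaks, which are wider than an interval of the median. With the gene body only, members with a peak numbered 10, by group 3 Chd, 3 BAF, 2 Polycomb and 0 methyltransferase genes (0 peaks per 100 kb). All protein-coding genes then had 0.191 peaks per 100 kb and 7.17% had a peak, and rho with length was 0.45. With a window of 10 kb, 3 Chd, 3 BAF and 1 methyltransferase genes had a peak, as did 12.4% of all genes, and 80.8% of member peaks were in the body. With 100 kb, 34.9% of all genes had a peak and rho was 0.08. With the 1837 peaks of at least 381 bp, members had 0.316 peaks per 100 kb, methyltransferases 0 (0 genes), erasers 0.141 (1 gene) and all genes 0.108. Then 13.2% of all genes had a peak and rho was 0.08. With only peaks nearest to the gene, 12 members had one (3 Chd, 3 BAF, 2 Polycomb, 1 methyltransferase), at 0.316 per 100 kb, against 10.8% of all genes and 0.0949 per 100 kb. Polycomb genes (0.740) and erasers (0.641) stood above Chd genes (0.545 peaks per 100 kb) with a window of 10 kb, as they did with only the nearest peaks (0.405, 0.424 and 0.384). Any overlap of 1 bp moved none of the values computed with it. Leaving out Auts2 left the counts, window densities, rho, body share and median width within those limits, but Pearson's r fell to 0.255 and the Polycomb density in bodies to 0.243 per 100 kb. Members stood above all genes in density under each window, and the cause of these shifts was not tested. No paired analysis was possible because the values are 1 peak list with no value per library, and for the same reason no replicate could be left out. Unknown depth limits every statement on a gene without a peak.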

Other observations

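The running numbers in the peak names give the share of peaks kept around 3 members. From the first to the last peak of Auts2, 9 of 16 numbers are present (56.2%), for Chd7 4 of 5 (80.0%) and for Cbx2 3 of 3 (100%). The whole list holds 51.1%, but these shares cannot be compared with it. Each span begins and ends with a kept peak, which raises its share, and the 3 genes are the members with the most peaks. The positions of the absent peaks are not known beyond lying between their neighbours.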
